A study of Mus musculus with 12 samples.

Results

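The genes described here are 10 feedback inhibitors of MAP kinase signalling in cultured mouse vascular smooth muscle cells. They were taken by name from the deposited count tables: the dual-specificity phosphatases Dusp1, Dusp4, Dusp5, Dusp6, Dusp10 and Dusp16, the Sprouty genes Spry1, Spry2 and Spry4, and Spred1. All 10 were among the 26728 gene names that the day 14 table (30813 names) and the day 1 table (28451 names) share. RNA was sequenced from primary cells of the aorta in 4 groups of 3 libraries: NR4A3 knockout (KO) at day 14, wild type (WT) at day 14, KO at day 1 and WT at day 1. NR4A3 is an orphan nuclear receptor, and the study asked how its loss bears on vascular calcification. All cells were grown in DMEM/F12 with 10% serum and 10 mM beta-glycerophosphate, a phosphate donor used to drive mineral deposition, per the labels' protocols. The treatment label names beta-glycerophosphate for KO and reads none for WT, so genotype and whatever that label stands for cannot be told apart. The labels state neither how the knockout was made nor whether the 3 libraries of a group came from separate animals or cultures. The p-values below thus reflect how far these libraries spread, and that spread may be technical.

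The MAP kinases ERK, JNK and p38 are switched on when a kinase phosphorylates a threonine and a tyrosine in their activation loop, and the phosphatases of the Dusp family switch them off by removing both phosphates. Growth factors act mainly through ERK, which drives growth of smooth muscle cells, while JNK and p38 respond mainly to stress and cytokines. ERK activity itself raises the transcription of Dusp4, Dusp5, Dusp6 and the Sprouty genes, and Sprouty and Spred proteins then restrain the path from growth factor receptors to Ras and Raf, which closes a negative feedback loop. Dusp1, Dusp10 and Dusp16 act mainly on p38 and JNK. Below, Dusp4, Dusp5, Dusp6, Spry1, Spry2 and Spry4 are called ERK-linked and Dusp1, Dusp10 and Dusp16 stress-linked, and Spred1 is described by itself.

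The promoters of 3 phosphatases are shown because these genes mark the patterns described below: Dusp1 leads the stress-linked genes, Dusp6 moved the other way, and Dusp5 is ERK-linked by class but moved with Dusp1 at day 1. Of the 10 genes, 8 had an entry in the RefSeq promoter table (build GRCm38.p6, 300 bases, of which 250 lie before the transcript start and 50 after it). The capitals mark TGACG or its reverse complement CGTCA in Dusp1, the core of the site bound by the cAMP-responsive factor CREB, the CArG box bound by serum response factor in Dusp5, and GGAA or its reverse complement TTCC in Dusp6, the core of the site bound by ETS factors. The windows are chr17:26508423-26508722 on the minus strand for Dusp1, chr19:53528895-53529194 on the plus strand for Dusp5 and chr10:99262981-99263280 on the plus strand for Dusp6.
Dusp1: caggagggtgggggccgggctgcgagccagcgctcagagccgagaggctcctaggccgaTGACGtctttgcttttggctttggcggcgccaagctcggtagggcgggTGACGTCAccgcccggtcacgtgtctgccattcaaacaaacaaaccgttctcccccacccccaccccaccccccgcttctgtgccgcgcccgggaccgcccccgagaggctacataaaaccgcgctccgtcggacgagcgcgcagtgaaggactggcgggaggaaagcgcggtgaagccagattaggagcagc
Dusp5: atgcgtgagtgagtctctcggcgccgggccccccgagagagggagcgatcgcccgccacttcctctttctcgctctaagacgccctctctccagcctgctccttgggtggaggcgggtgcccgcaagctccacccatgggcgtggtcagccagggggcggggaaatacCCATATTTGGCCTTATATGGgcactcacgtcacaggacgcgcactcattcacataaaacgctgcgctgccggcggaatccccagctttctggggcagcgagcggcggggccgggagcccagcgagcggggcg
Dusp6: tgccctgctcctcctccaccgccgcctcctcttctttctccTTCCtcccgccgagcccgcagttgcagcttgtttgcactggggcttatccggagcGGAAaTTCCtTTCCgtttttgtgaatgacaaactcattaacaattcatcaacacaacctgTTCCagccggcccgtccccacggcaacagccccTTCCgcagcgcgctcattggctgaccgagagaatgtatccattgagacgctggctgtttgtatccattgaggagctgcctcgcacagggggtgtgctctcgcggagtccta
The Dusp1 window held the full palindrome TGACGTCA, present in 1.79% of the 32851 promoter windows of the table, and 3 TGACG or CGTCA sites, of which 2 overlap within that palindrome. At least 1 such site occurred in 20.8% of all windows. The Dusp5 window held 2 CArG boxes, against at least 1 in 1.63% of all windows. The Dusp6 window held 6 GGAA or TTCC sites, where the median window held 3 and 96% held at least 1. Among the other members such sites numbered 5 in Spry2 and in Spred1, 3 in Dusp5, 2 in Dusp16, 1 in Dusp1 and in Spry1, and 0 in Dusp10. The Dusp5 and Dusp16 windows each held 1 TGACG or CGTCA site, not marked above, and those of Dusp6, Dusp10, Spry1, Spry2 and Spred1 held none. These matches describe letters in a window and say nothing of binding in these cells.

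Library totals ran from 14369933 to 18797157 counts in KO and from 13848199 to 19519654 in WT at day 14, and from 17143281 to 20091307 in KO and from 24929624 to 30105118 in WT at day 1. Nr4a3 had lower counts in KO at both days: it stood at 34.3, 60.1 and 54.5 CPM (counts scaled to a common TMM-adjusted library total) in KO and 238, 256 and 217 CPM in WT at day 14, and at 1.89, 2.0 and 2.34 CPM in KO and 4.61, 4.28 and 3.85 CPM in WT at day 1. Its log2 fold change of KO over WT was -2.27 ± 0.19 at day 14 (SE; edgeR, adjusted p = 2.60e-05) and -1.02 ± 0.21 at day 1 (adjusted p = 8.55e-04), and which part of the gene was removed is not given in the labels. Of 8 smooth muscle markers, Acta2 and Des were abundant, but Tagln and Myh11, which define contractile smooth muscle, averaged 0.244 and 0.171 CPM in KO at day 14, 0.083 and 0.574 CPM in WT at day 14, 0.204 and 0.475 CPM in KO at day 1, and 0.025 and 0.0862 CPM in WT at day 1. In the fit of all 12 libraries, KO at day 1 and WT at day 14 differed in 9.78% of 15973 genes, against 50.7% to 54.8% for 3 other pairs of groups in that fit, so the KO libraries of day 1 resembled the WT libraries of day 14. The median correlation of log2 CPM across genes was 0.974 between these groups and 0.921 to 0.936 between the other pairs of groups. An exchange of the KO and WT labels at day 1 would turn every sign of KO against WT at that day. It would also alter the change of the KO effect between days and the comparisons of days within a genotype. Such an exchange was not tested. Nr4a3 was lower in the day 1 libraries labelled KO, at 1.89 to 2.34 CPM, against 3.85 to 4.61 CPM in those labelled WT. For KO at day 1 over WT at day 14, Nr4a3 had a log2 fold change of -6.82 ± 0.21. That contrast mixes day with genotype, so it cannot tell whether labels were exchanged. Within WT alone, day 14 over day 1 gave 5.80 ± 0.19 for Nr4a3, and within KO alone 4.57 ± 0.21. The share of 9.78% for KO at day 1 and WT at day 14 rested on the libraries used. For these groups 1562 genes were called, against 5538 without WT replicate 1 of day 14 and 205 in a fit of their 6 libraries alone. Leaving out KO replicate 1 or 3 of day 1, or WT replicate 2 or 3 of day 14, gave 576 to 747. WT replicate 1 of day 14 stood apart from its group over all genes, with a chi-square per gene of 32.5 and 46.1 against its partners and 8.57 between those.

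At day 14 the stress-linked phosphatases and Dusp4 were lower in KO, and Dusp6, Spry2, Spry4 and Spred1 were higher. Of 10 genes, 9 passed the filter on low counts. Of these, 4 rose and 4 fell in KO (edgeR's quasi-likelihood test, adjusted p below 0.05), where 22.7% of all 14905 genes tested rose and 23.7% fell, 46.4% in all. Dusp5 was not called, and Spry1 was not tested. At day 1 the same genes stood mostly the other way: Dusp1, Dusp4, Dusp5, Dusp10 and Dusp16 rose in KO, while Dusp6, Spry1, Spry2 and Spred1 fell. All 10 were tested at day 1 and 9 were called, 5 higher and 4 lower, where 60.8% of 15368 genes were called, 30.6% higher and 30.2% lower. Spry4 was not called. Spry1 passed the filter through WT alone, and without it 8 of 9 were called, 5 higher and 3 lower, a count added after the values were seen. With library size alone in place of TMM scaling, the higher share of all calls at day 1 was 61.7% instead of 50.4%, and the median log2 fold change of all genes was 0.14 instead of 0.01. No member turned its direction under any other scaling, test, filter or set of libraries, the replicate block included, in either comparison of KO with WT.

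**Figure D1:**
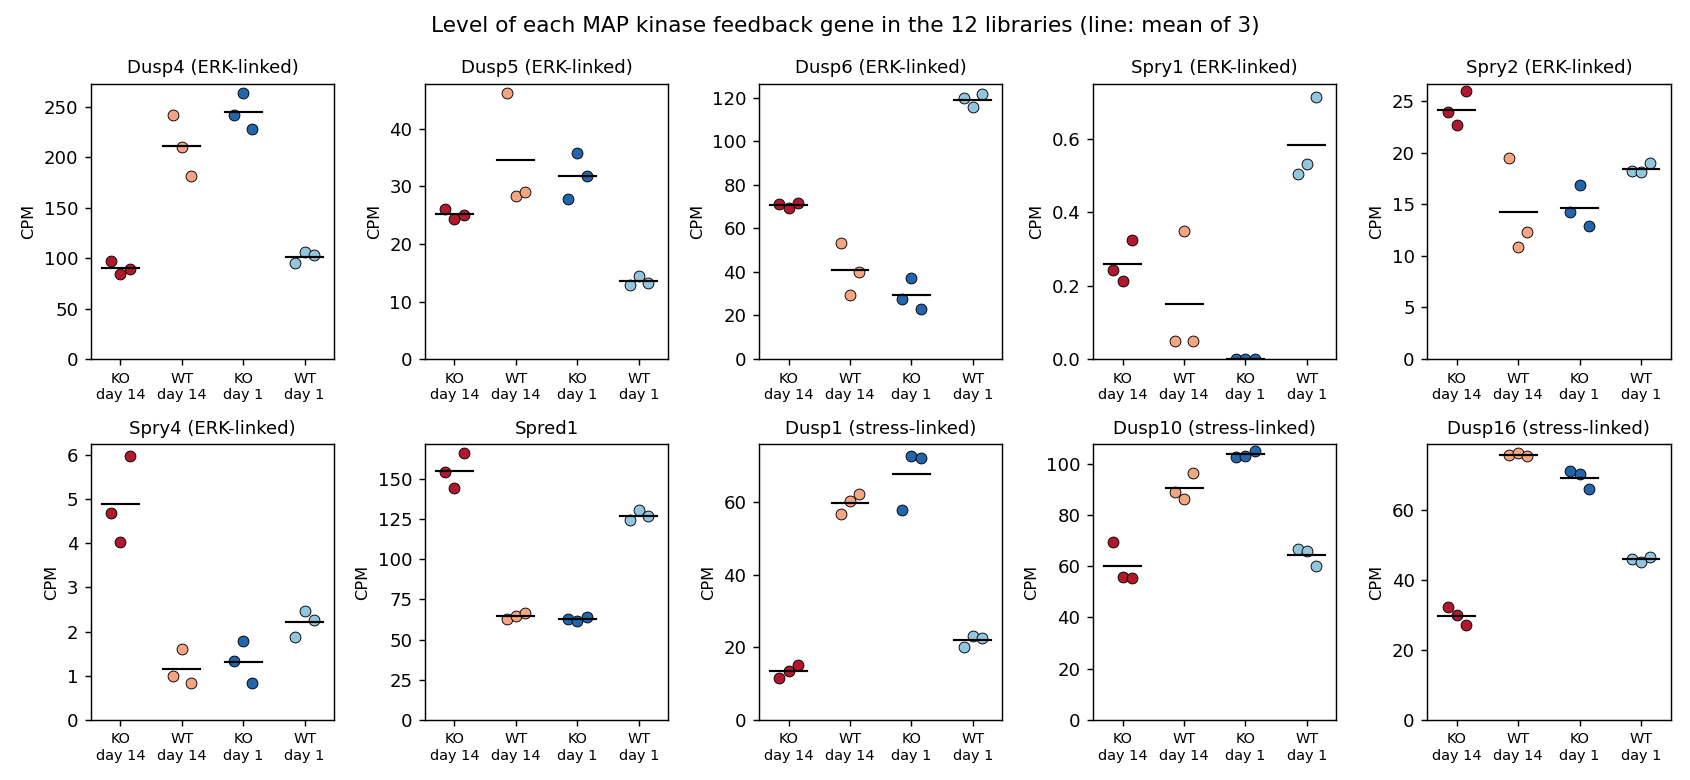
Level of each of the 10 genes in CPM (linear axis from 0), with 1 point for each library and a line at the mean of 3; groups run from left to right as KO day 14, WT day 14, KO day 1, WT day 1. Dusp1, Dusp4, Dusp10 and Dusp16 are high in WT day 14 and KO day 1 and low in the other groups, and Spred1 shows the reverse.

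Dusp1, a nuclear phosphatase of p38 and JNK that is itself an immediate early gene, had the largest fitted fall of the 9 tested genes at day 14. It stood at 11.4, 13.6 and 15.2 CPM in KO and 56.6, 60.3 and 62.3 CPM in WT at day 14. Day 1 levels were 57.9, 72.8 and 72.2 CPM in KO and 20.1, 23.0 and 22.6 CPM in WT. The groups did not overlap at either day. KO was low at day 14 and high at day 1. The log2 fold change of KO over WT was -2.17 ± 0.13 at day 14 (SE; edgeR, adjusted p = 4.07e-06) and 1.64 ± 0.10 at day 1 (adjusted p = 1.42e-08). Its annotated exons share 11 bases with Ergic1 on the other strand (GENCODE M21), and the use of strand in counting is not given in the sources used here.

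Dusp16, a phosphatase that acts mainly on JNK, followed Dusp1 in direction. It stood at 32.1, 30.0 and 27.0 CPM in KO and 75.7, 76.1 and 75.2 CPM in WT at day 14. Its levels at day 1 were 70.9, 70.0 and 65.8 CPM in KO and 45.9, 45.1 and 46.4 CPM in WT. KO was lower in each library at day 14 and higher in each at day 1. KO over WT had a log2 fold change of -1.36 ± 0.10 at day 14 (edgeR, adjusted p = 1.28e-05) and 0.60 ± 0.06 at day 1 (adjusted p = 3.52e-06). Dusp10, a phosphatase of p38 and JNK, moved less at day 14. It stood at 69.4, 56.0 and 55.3 CPM in KO and 89.0, 86.4 and 96.5 CPM in WT at day 14, and at 102.9, 103.3 and 105.2 CPM in KO and 66.6, 66.0 and 60.2 CPM in WT at day 1. The groups did not overlap at either day, with a log2 fold change of -0.60 ± 0.11 at day 14 (edgeR, adjusted p = 0.00235) and 0.70 ± 0.06 at day 1 (adjusted p = 5.83e-07). All 3 stress-linked genes were thus lower in KO at day 14 and higher in KO at day 1.

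The ERK-linked genes did not move as 1 group. Dusp4, a nuclear phosphatase induced by ERK that also acts on JNK, moved like the stress-linked genes. It stood at 97.2, 84.4 and 89.4 CPM in KO and 242, 211 and 182 CPM in WT at day 14, and at 242, 264 and 228 CPM in KO and 94.8, 106 and 103 CPM in WT at day 1. No KO library overlapped the WT range of its day. Its log2 fold change was -1.24 ± 0.12 at day 14 (edgeR, adjusted p = 5.51e-05) and 1.28 ± 0.07 at day 1 (adjusted p = 4.64e-09).

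Dusp5, a nuclear phosphatase specific for ERK, rose in KO at day 1, and at day 14 it did not pass the test. It stood at 26.0, 24.4 and 25.0 CPM in KO and 46.2, 28.3 and 29.1 CPM in WT at day 14. At day 1 it stood at 27.9, 35.8 and 31.8 CPM in KO and 12.9, 14.4 and 13.3 CPM in WT. WT replicate 1 of day 14 stood well above the other WT libraries of that day. The log2 fold change was -0.47 ± 0.19 at day 14 (edgeR, adjusted p = 0.0649) and 1.24 ± 0.11 at day 1 (adjusted p = 4.76e-07). At day 14 the adjusted p ran from 0.0078 to 0.160 over 14 alternatives and was below 0.05 in 7 of them, among them the fit without WT replicate 2 (-0.59, adjusted p = 0.0395) and without WT replicate 3 (-0.58, adjusted p = 0.0449). Without WT replicate 1 the fitted value was -0.22. Its annotated exons share 547 bases with a gene on the other strand that has no symbol of its own (GENCODE M21).

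Dusp6, the cytoplasmic phosphatase specific for ERK, had the opposite sign to Dusp4 and Dusp5 at both days. It stood at 71.2, 69.5 and 71.6 CPM in KO and 53.1, 29.6 and 39.9 CPM in WT at day 14. Day 1 levels were 27.7, 37.0 and 23.1 CPM in KO and 119.8, 115.6 and 121.5 CPM in WT. KO was above every WT library at day 14 and below every WT library at day 1. KO over WT had a log2 fold change of 0.78 ± 0.18 at day 14 (edgeR, adjusted p = 0.00707) and -2.02 ± 0.12 at day 1 (adjusted p = 1.69e-08), the largest fitted fall among the members at day 1 apart from Spry1.

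**Figure D2:**
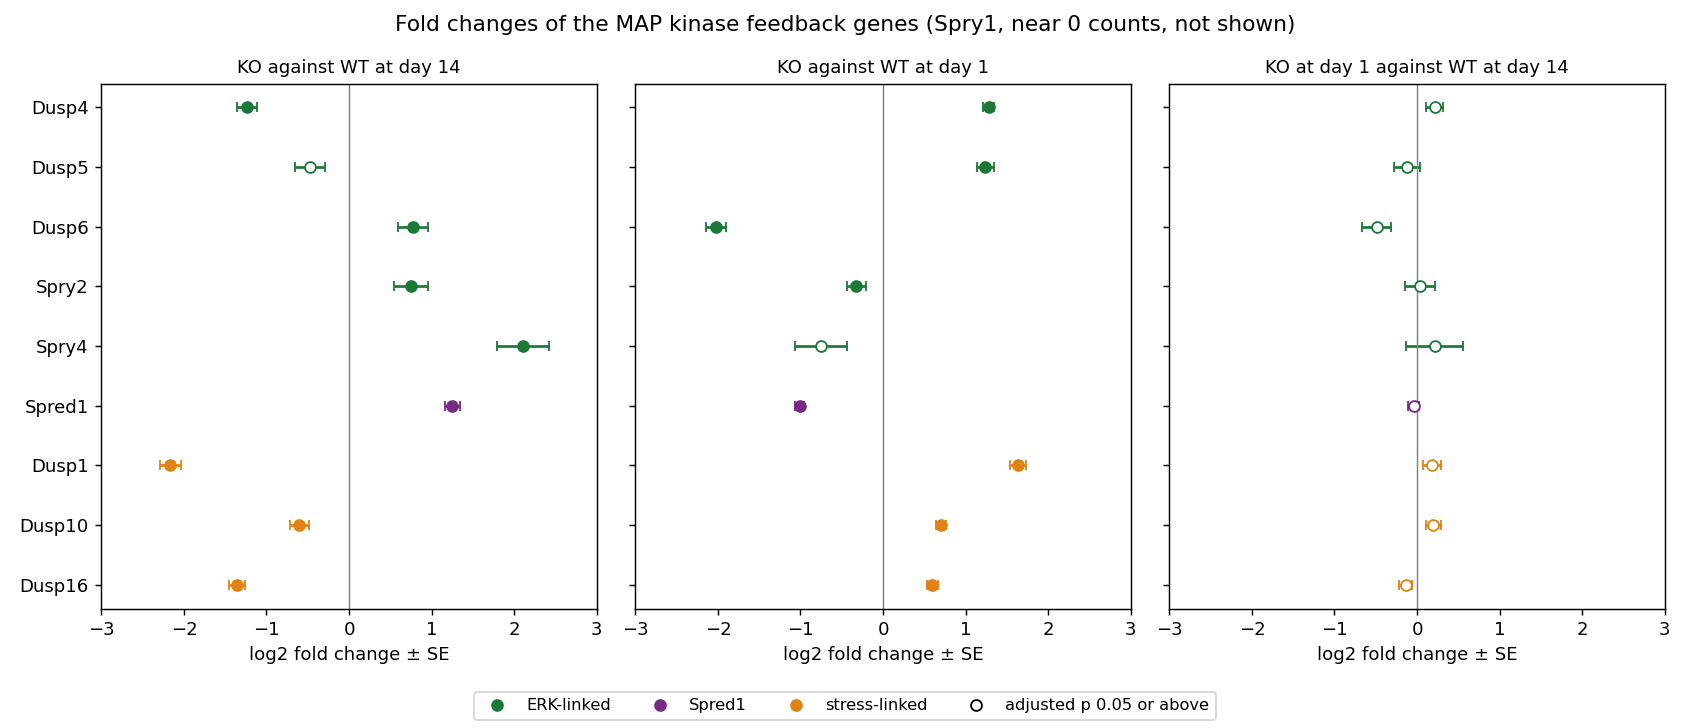
Log2 fold change ± SE of 9 genes (rows) in 3 comparisons (panels), with filled points where the adjusted p was below 0.05; colours give the class. KO against WT has opposite signs at day 14 and day 1 for each of the 9 genes, and KO at day 1 against WT at day 14 has 9 open points, from -0.49 (Dusp6) to 0.21 (Dusp4 and Spry4).

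Where called, the Sprouty genes went in the direction of Dusp6. Spry4, an inhibitor of the path from receptor to Ras and Raf, stood at 4.68, 4.02 and 5.99 CPM in KO and 1.00, 1.61 and 0.841 CPM in WT at day 14, with 57 to 111 counts in each KO library, against 17 to 23 in each WT library. Its levels at day 1 were 1.33, 1.78 and 0.829 CPM in KO and 1.89, 2.48 and 2.26 CPM in WT. KO was higher in each library at day 14 and lower in each at day 1. Its log2 fold change was 2.11 ± 0.31 at day 14 (edgeR, adjusted p = 6.70e-04). At day 1 it was -0.75 ± 0.31 (adjusted p = 0.0514), which did not pass. The adjusted p at day 1 ran from 0.0109 to 0.175 over 14 alternatives and was below 0.05 in 4, among them without KO replicate 2 (-1.03, adjusted p = 0.0109).

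Spry2, which in mammalian cells also binds the ubiquitin ligase Cbl, stood at 23.9, 22.7 and 25.9 CPM in KO and 19.5, 10.9 and 12.3 CPM in WT at day 14. At day 1 it stood at 14.3, 16.9 and 12.9 CPM in KO and 18.2, 18.1 and 19.0 CPM in WT. KO lay above WT at day 14 and below it at day 1, without overlap. The log2 fold change was 0.75 ± 0.21 at day 14 (edgeR, adjusted p = 0.0160) and -0.32 ± 0.11 at day 1 (adjusted p = 0.0234). Both calls were fragile. At day 14 the adjusted p ran from 1.70e-06 to 0.0659 over 14 alternatives, and the call was lost without KO replicate 1 (0.0530) or 3 (0.0659) or WT replicate 3 (0.0554). At day 1 it ran from 0.00147 to 0.154. That call was lost on leaving out KO replicate 1 (0.0653), KO replicate 3 (0.0837) or any WT library (0.0533 to 0.0759), with library size alone (0.154) and in the fit of all 12 libraries (0.123).

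Spry1 was close to absent. It had 4, 3 and 6 counts in the KO libraries and 1, 5 and 1 in the WT libraries at day 14, and 0, 0 and 0 in KO and 12, 15 and 18 in WT at day 1. It passed the filter on low counts at day 1 alone, through the WT group, which favours a call. Its call there (edgeR, adjusted p = 2.90e-04) thus counts for little. Against a floor of 3 counts over the KO group, Spry1 was at least 10.96-fold lower in KO at day 1. That bound takes the 45 WT counts as exact. At day 14 the ratio of KO to WT was 2.06, with a 95% exact binomial interval of 0.764 to 6.10 that covers counting error only, and it was not tested. Its exons share 710 bases with the predicted gene Gm42922 on the other strand.

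Spred1, which brings neurofibromin to the membrane to switch off Ras, had the smallest standard error of the tested members at both days. It stood at 154.5, 144.6 and 166.4 CPM in KO and 62.9, 64.5 and 66.4 CPM in WT at day 14. Day 1 levels were 62.6, 61.8 and 63.9 CPM in KO and 124.4, 130.5 and 126.9 CPM in WT. The levels of KO at day 14 and WT at day 1 were high, and those of WT at day 14 and KO at day 1 were low. KO over WT had a log2 fold change of 1.25 ± 0.09 at day 14 (edgeR, adjusted p = 1.08e-05) and -1.01 ± 0.06 at day 1 (adjusted p = 7.43e-09).

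Set by class, the ERK-linked genes had 3 of 5 tested members higher and 1 lower in KO at day 14 (median log2 fold change 0.75), and the stress-linked genes 0 of 3 higher and 3 lower (median -1.36), where 22.7% of all genes were higher and 23.7% lower. The median of all genes tested was 0.00 at day 14 and 0.01 at day 1. At day 1 the ERK-linked genes had 2 of 6 higher and 3 lower (median -0.54), and the stress-linked genes 3 of 3 higher (median 0.70), where 30.6% of all genes were higher and 30.2% lower. Without Spry1 the ERK-linked genes had 2 of 5 higher and 2 lower at day 1 (median -0.32). As a description of each library, the mean log2 CPM of the 6 ERK-linked genes minus that of the 3 stress-linked genes was -1.09, -1.16 and -0.93 in KO and -2.70, -2.78 and -3.18 in WT at day 14. It was -3.13, -2.99 and -3.37 in KO and -1.70, -1.63 and -1.56 in WT at day 1. KO minus WT in this balance was 1.82 at day 14 and -1.53 at day 1, without overlap between the groups of a day. The stress-linked mean differed more than the ERK-linked mean: it was 4.85 in KO and 6.22 in WT at day 14 and 6.29 in KO and 5.33 in WT at day 1. The ERK-linked mean was 3.79 in KO and 3.33 in WT at day 14 and 3.13 in KO and 3.70 in WT at day 1. The lower ERK-linked mean in KO at day 1 leaned mostly on Spry1. Its log2 CPM at day 1 was -3.31 in each KO library, set by the prior count, and -0.73, -0.66 and -0.30 in WT. Both differences held their sign when any 1 member was left out, and both were larger in size without Dusp4, at 2.16 for day 14 and -1.90 for day 1. The difference at day 1 leaned on Spry1, which had no counts in KO, and stood at -1.10 without it. The pair of Dusp6 and Dusp1 alone gave a wider contrast: Dusp6 minus Dusp1 in log2 CPM was 2.63, 2.35 and 2.23 in KO and -0.09, -1.02 and -0.64 in WT at day 14, and -1.06, -0.98 and -1.64 in KO and 2.57, 2.33 and 2.42 in WT at day 1. Dusp1 had the largest fitted fall at day 14 and the largest fitted rise at day 1, and Dusp6 the largest fall at day 1 apart from Spry1. The choice of this pair thus favours a wider contrast.

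**Figure D3:**
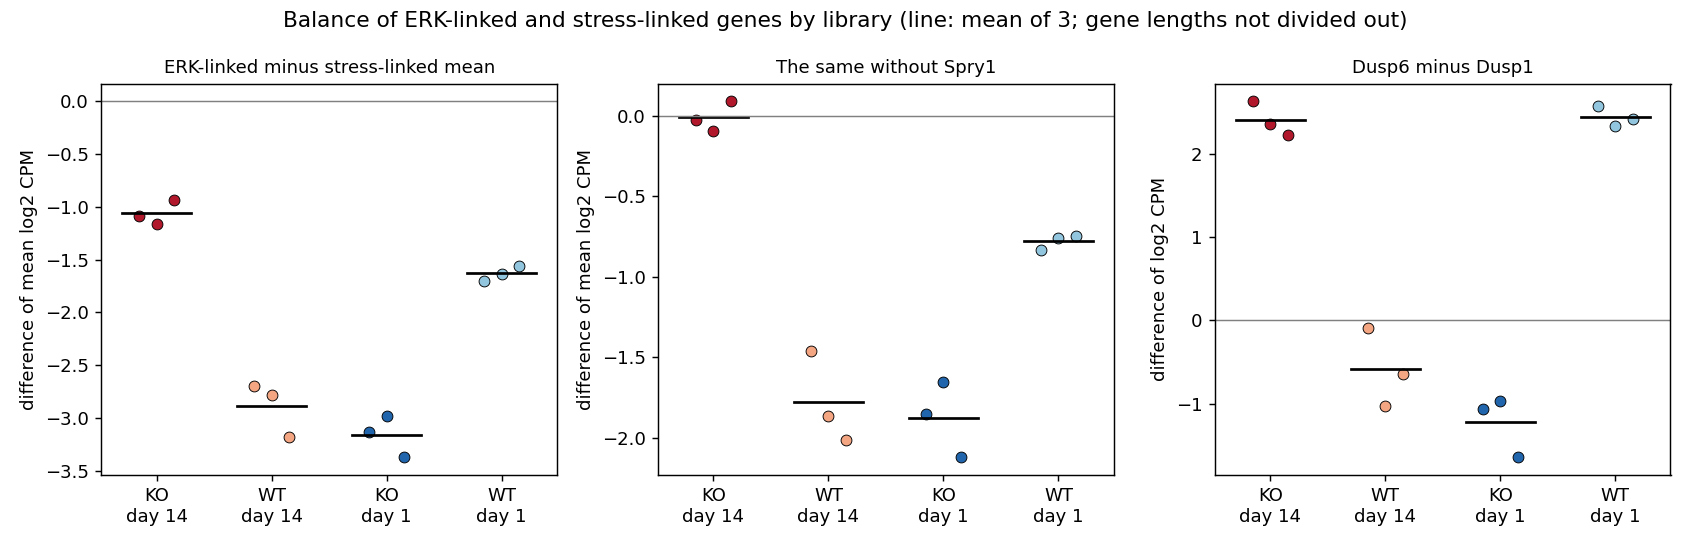
Difference of mean log2 CPM between ERK-linked and stress-linked genes (left), the same without Spry1 (middle), and Dusp6 minus Dusp1 (right), with 1 point for each library and a line at the mean of 3. KO day 14 and WT day 1 stand high and WT day 14 and KO day 1 low in each panel.

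How far the effect of KO changed between days was tested in 1 fit of all 12 libraries, with the genotype labels of day 1 used as given. All 9 members tested were called, 4 higher and 5 lower, where 60.1% of 15973 genes were called, 29.5% higher and 30.5% lower. With library size alone the higher share of all calls was 37.9% instead of 49.2%, and the median of all genes was -0.22 instead of -0.01. The KO effect at day 14 minus that at day 1 was -3.78 ± 0.17 for Dusp1, -2.50 ± 0.14 for Dusp4 and -1.94 ± 0.11 for Dusp16 on the log2 scale. It was 2.88 ± 0.45 for Spry4, 2.81 ± 0.25 for Dusp6 and 2.28 ± 0.10 for Spred1, with adjusted p (edgeR) from 6.62e-11 to 5.14e-05 for these 6 genes. It was -1.69 ± 0.23 for Dusp5, -1.28 ± 0.13 for Dusp10 and 1.09 ± 0.25 for Spry2 (edgeR, adjusted p at most 0.00136). Each of the 9 calls was kept without any 1 library.

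The days were also compared within each genotype, and each day is its own count table, so day and table cannot be told apart. In KO, 8 of 9 members were called between day 14 and day 1, 4 higher and 4 lower, where 54.8% of all genes were called, 26.9% higher and 27.9% lower. Dusp1 (-2.33 ± 0.12), Dusp4 (-1.44 ± 0.10), Dusp16 (-1.21 ± 0.08) and Dusp10 (-0.79 ± 0.09) fell, and Spry4 (1.91 ± 0.31), Spred1 (1.31 ± 0.07), Dusp6 (1.28 ± 0.18) and Spry2 (0.72 ± 0.17) rose (edgeR, adjusted p at most 0.00257). Dusp5 did not pass (-0.34 ± 0.16, adjusted p = 0.0857), but did in 3 of 20 alternatives (adjusted p from 0.00373 to 0.243), among them the fit without WT replicate 1 of day 14 (-0.35). In WT, 8 of 9 were called, 5 higher and 3 lower, where 51.9% of all genes were called, 25.8% higher and 26.1% lower. With library size alone the higher share of all calls in WT was 62.7% instead of 49.7%. Dusp1 (1.45 ± 0.12), Dusp5 (1.35 ± 0.16), Dusp4 (1.06 ± 0.10), Dusp16 (0.72 ± 0.08) and Dusp10 (0.50 ± 0.09) rose, and Dusp6 (-1.53 ± 0.17), Spred1 (-0.98 ± 0.07) and Spry4 (-0.97 ± 0.32) fell (edgeR, adjusted p at most 0.0197). Spry2 did not pass (-0.37 ± 0.17, adjusted p = 0.0900) but did without WT replicate 1 of day 14 (-0.65), with an adjusted p from 2.19e-04 to 0.347 over 20 alternatives. Spry4 lost its call in WT without WT replicate 3 of day 14 (-0.77, adjusted p = 0.0823) or WT replicate 2 of day 1 (-0.89, adjusted p = 0.0649), and its adjusted p ran from 0.0083 to 0.0823 over 20 alternatives. These contrasts share libraries with the comparisons of KO and WT above, and they too rest on the genotype labels of day 1 as given.

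Setting KO at day 1 against WT at day 14, none of the 9 members tested was called by edgeR, where 9.78% of all genes were, 3.89% higher and 5.89% lower. At an unadjusted p below 0.05 there were 3 members, and DESeq2 called 1 and limma-voom 0. The estimate was -0.04 for Spred1 (95% interval -0.19 to 0.11), 0.18 for Dusp1 (-0.06 to 0.42), 0.21 for Dusp4 (0.00083 to 0.42) and -0.49 for Dusp6 (-0.87 to -0.11) on the log2 scale. It was 0.20 for Dusp10 (0.0038 to 0.39) and -0.14 for Dusp16 (-0.30 to 0.03), and the libraries of these genes did not overlap. It was -0.12 for Dusp5 (-0.46 to 0.22), 0.036 for Spry2 (-0.34 to 0.41) and 0.21 for Spry4 (-0.52 to 0.95). These intervals bound the difference and do not show that the levels were equal. The adjusted p of Dusp6 was 0.0904, and it ran from 0.0271 to 0.307 over 20 alternatives, with 4 below 0.05, among them DESeq2 and the fits without KO replicate 2 of day 1 or WT replicate 2 of day 14. Dusp4 passed without WT replicate 1 of day 14 (0.33), with an adjusted p from 0.00449 to 0.528 over 20 alternatives. Setting KO at day 14 against WT at day 1, 6 of 9 were called, 3 higher and 3 lower, where 50.7% of all genes were called, 24.6% higher and 26.1% lower. Spry4 (1.15 ± 0.29), Dusp5 (0.89 ± 0.16) and Spred1 (0.29 ± 0.07) were higher in KO at day 14, and Dusp6 (-0.75 ± 0.17), Dusp1 (-0.71 ± 0.12) and Dusp16 (-0.62 ± 0.08) were lower (edgeR, adjusted p at most 0.00372). Spry2 (0.39 ± 0.17), Dusp4 (-0.17 ± 0.10) and Dusp10 (-0.09 ± 0.09) did not pass, and Spry2 passed in 6 of 20 alternatives (adjusted p from 1.64e-04 to 0.183). Dusp1 and Dusp6 thus both stood below WT of day 1 in KO of day 14, though they differed in direction in the comparisons within a day.

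Levels of different genes can be compared only per length. Per kilobase of merged exon (GENCODE M21, whose build differs from the mm9 of the counts), Dusp4 had the highest level of the 10 genes in KO at day 14 (33 CPM per kb), in WT at day 14 (77.1) and in KO at day 1 (89.3). In WT at day 1, Dusp6 (38) and Dusp4 (37) stood close together, and that order was not tested. Dusp6 was the next highest after Dusp4 and Spred1 in KO at day 14 (22.6, against 22.9 for Spred1), and Dusp10 was next after Dusp4 in WT at day 14 (29.8) and KO at day 1 (34.1). Spry1 was lowest in all 4 groups, at 0.0893 CPM per kb in KO and 0.0514 in WT at day 14, and at 0 in KO and 0.2 in WT at day 1. Spry4 was next lowest in each.

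Other genes of the pathway are given next, and their counts stand beside the 46.4% of all genes called at day 14 and the 60.8% called at day 1. Of 4 other MAP kinase phosphatases, 1 was higher and 2 were lower in KO at day 14 (median log2 fold change -0.70), and 2 were higher and 1 was lower at day 1 (median 0.32). Dusp2, a nuclear phosphatase known from immune cells, rose at day 14 (1.16 ± 0.21) and fell at day 1 (-1.20 ± 0.25). Dusp8, which acts on JNK and p38, fell at day 14 (-1.66 ± 0.16) and rose at day 1 (1.31 ± 0.12), as did Dusp9, an ERK phosphatase (-1.47 ± 0.18 and 0.58 ± 0.16). Dusp7, a cytoplasmic ERK phosphatase, stood at 0.07 ± 0.13 and 0.06 ± 0.10 and did not pass at either day.

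Of 12 other Sprouty and Spred genes and inhibitors of receptor signalling, 7 were higher and 2 lower in KO at day 14 (median log2 fold change 0.52), and 2 were higher and 7 lower at day 1 (median -0.20). Errfi1, which inhibits the EGF receptor, rose by 2.65 ± 0.12 at day 14 and fell at day 1 (-1.99 ± 0.07). Spry3 rose at day 14 (1.94 ± 0.26) and fell at day 1 (-1.45 ± 0.21). Lrig3, a membrane regulator of growth factor receptors, fell at day 14 (-1.55 ± 0.17) and rose at day 1 (1.19 ± 0.11). Il17rd, an inhibitor of FGF signalling, fell at day 14 (-1.48 ± 0.18), and Pea15a, which holds ERK in the cytoplasm, rose at day 1 (0.28 ± 0.06).

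Of 12 transcripts known to follow ERK activity, 7 were higher and 3 lower in KO at day 14 (median log2 fold change 0.43), and 4 were higher and 7 lower at day 1 (median -0.58). Egr1, a zinc finger factor of the early growth response, averaged 140.4 CPM in KO, against 19.0 CPM in WT at day 14 (2.87 ± 0.18), and 11.3 CPM in KO, against 39.5 CPM in WT at day 1 (-1.80 ± 0.11). The ETS factor Etv5 rose at day 14 (1.97 ± 0.16) and its relative Etv1 fell at day 1 (-1.80 ± 0.08). The ephrin receptors Epha4 (-2.20 ± 0.18) and Epha2 (-1.80 ± 0.12) fell at day 14, and Phlda1 (1.41 ± 0.14) and Myc (0.96 ± 0.12) rose at day 1. Egr1 is also on the list of immediate early genes, and Spred2 on that of the other inhibitors.

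Of 12 immediate early genes, the class to which Dusp1 also belongs, 3 were higher and 6 lower in KO at day 14 (median log2 fold change -0.35), and 3 were higher and 9 lower at day 1 (median -0.77). Egr3 rose at day 14 (4.21 ± 0.19) and fell at day 1 (-2.97 ± 0.20), against the direction of Dusp1. Atf3, a stress-induced factor, went with Dusp1, at -2.04 ± 0.22 at day 14 and 0.87 ± 0.12 at day 1. Fos, a partner in AP-1, fell at day 14 (-1.64 ± 0.25), and its partner Jun rose at day 1 (0.50 ± 0.07). Fos averaged 1.88 CPM in KO against 4.16 CPM in WT at day 1, so it was lower in KO at both days.

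Of 20 genes of the ERK cascade, 5 were higher and 3 lower in KO at day 14 (median log2 fold change -0.03), and 6 were higher and 10 lower at day 1 (median -0.21), where 46.4% of all genes were called at day 14 and 60.8% at day 1. The adaptors Shc1 (0.68 ± 0.09) and Frs2 (0.62 ± 0.08) rose and Gab1 (-0.62 ± 0.14) and the Ras activator Sos2 (-0.38 ± 0.10) fell at day 14 by the naming rule, which asks for a mean log2 CPM of at least 1. At day 1 Hras (0.86 ± 0.09) and the scaffold Ksr1 (0.55 ± 0.12) rose, and Mapk3, which encodes an ERK kinase (-0.997 ± 0.062), and Frs2 (-0.87 ± 0.06) fell. Of 24 tested genes of the JNK and p38 cascades, 9 were higher and 6 lower at day 14 (median 0.02), and 5 were higher and 10 lower at day 1 (median -0.02), and the day 1 count is close to the share of all genes. Mapk11, a p38 kinase (1.75 ± 0.14), and Map2k6, which activates p38 (1.66 ± 0.15), rose at day 14. The stress-induced genes Gadd45g (-2.24 ± 0.18) and Gadd45b (-1.26 ± 0.21) fell at that day. At day 1 Gadd45a (1.21 ± 0.09) and Gadd45g (1.19 ± 0.08) rose, and Map2k6 (-1.43 ± 0.15) and the kinase Map3k5 (-1.25 ± 0.20) fell.

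Upstream of the cascade, 3 of 14 tested growth factor receptors were higher and 5 lower in KO at day 14, and 4 of 13 were higher and 7 lower at day 1 (medians -0.04 and -0.20), beside the same shares of all genes, 46.4% and 60.8%. The FGF receptor Fgfr2 averaged 2.15 CPM in KO, against 29.2 CPM in WT at day 14 (-3.79 ± 0.22), and 19.9 CPM in KO, against 0.802 CPM in WT at day 1 (4.63 ± 0.18). At day 14 the PDGF receptor Pdgfrb (2.57 ± 0.22) and the collagen receptor Ddr2 (1.18 ± 0.08) rose and Erbb3 fell (-2.25 ± 0.33). At day 1 Erbb2 rose (0.35 ± 0.10), and Ddr2 (-0.83 ± 0.05) and Pdgfra (-0.79 ± 0.09) fell. Of the growth factor ligands, 6 of 16 tested were higher and 7 lower at day 14, and 4 of 15 were higher and 5 lower at day 1 (medians -0.20 and -0.11), again beside 46.4% and 60.8% of all genes. Hgf (2.51 ± 0.09) and Fgf2 (2.26 ± 0.14) rose and Pdgfd (-3.62 ± 0.18) and Tgfa (-2.97 ± 0.20) fell at day 14. At day 1 Igf1 (6.48 ± 0.46, with 5 counts in all in WT) and Pdgfd (0.92 ± 0.09) rose, and Fgf2 (-1.27 ± 0.12) and Fgf10 (-0.96 ± 0.09) fell. Igf1 passed the filter on low counts at day 1 through the KO group, which favours a call. Its call there, among the 4 higher ligands, thus counts for little. For these named genes the adjusted p (edgeR) was below 0.05 wherever a rise or fall is stated.

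**Figure D4:**
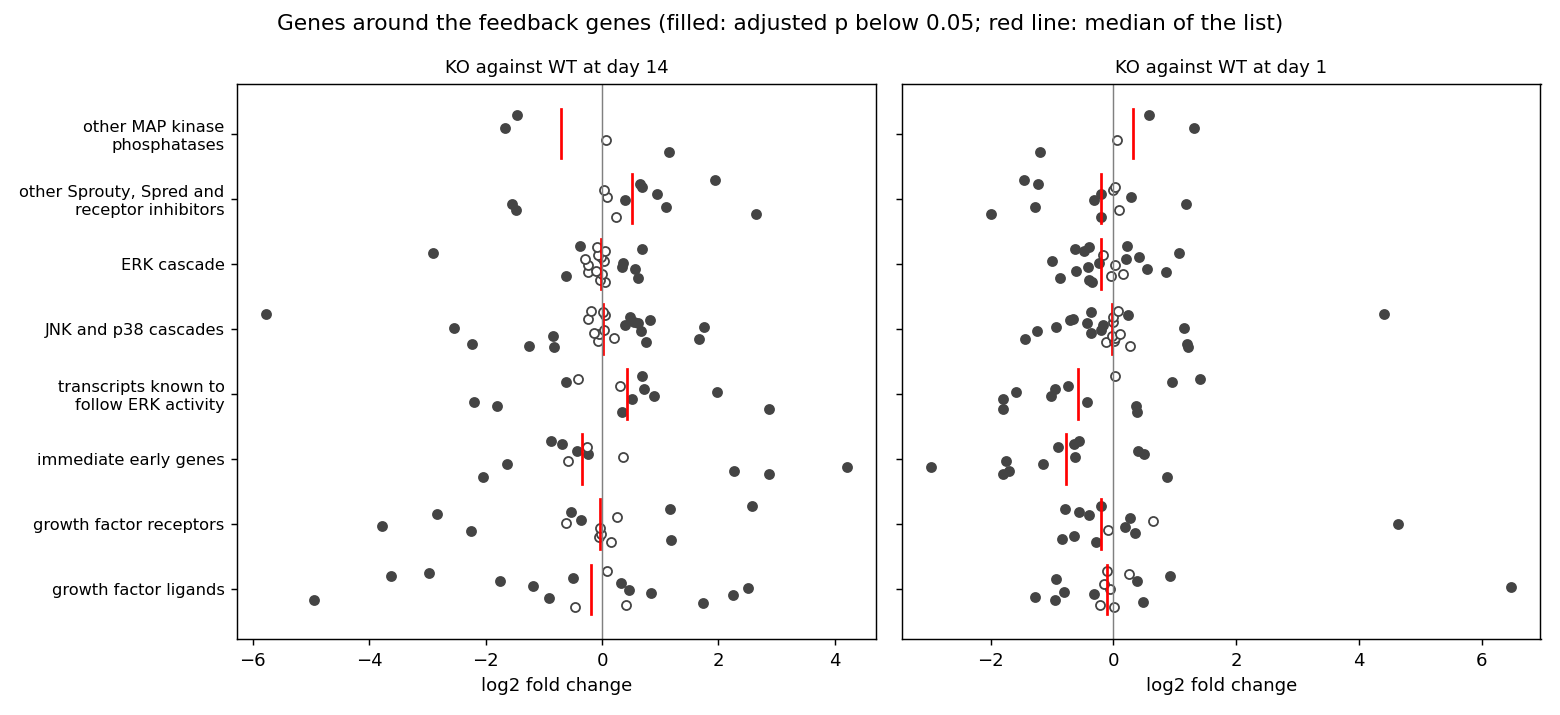
Log2 fold change of KO over WT for each tested gene of 8 lists (rows) at day 14 (left) and day 1 (right); filled points passed an adjusted p below 0.05 and the red line is the median of the list. The list medians run from -0.70 to 0.52 at day 14 and from -0.77 to 0.32 at day 1, while single genes reach beyond 4 on the log2 scale.

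Likeness of levels over the 4 groups was ranked among the 9954 genes whose mean log2 CPM was 3 or more. Predicted genes (Gm and Rik names and names that start with a digit) and the other members were passed over. The genes then most like Dusp6 were Cyp51 of cholesterol synthesis, the adhesion molecule Alcam and Srebf1, a transcription factor of lipid synthesis. The root mean square difference of their 4 centred group means from those of Dusp6 was 0.036, 0.065 and 0.072 on the log2 scale. For Dusp1 they were Chrnd, a subunit of the muscle acetylcholine receptor, the annexin Anxa3 and the serpin Serpinb9b, at 0.035, 0.038 and 0.055. Anxa3 averaged 169 CPM in KO, against 712 CPM in WT at day 14, and 794 CPM in KO, against 269 CPM in WT at day 1. Cyp51 averaged 180.4 CPM in KO, against 112 CPM in WT at day 14, and 77.0 CPM in KO, against 322 CPM in WT at day 1. The 4 group means are all that this likeness rests on.

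In bulk RNA, fewer cells of a type and less RNA per cell cannot be told apart, and cell type markers also differed between the groups. The 8 smooth muscle markers summed to 2014 to 2417 CPM in KO and 1162 to 1896 CPM in WT at day 14, and to 1328 to 1527 CPM in KO and 1024 to 1086 CPM in WT at day 1. Acta2 had a mean of 1628 CPM in KO against 662 CPM in WT at day 14, and 668 CPM in KO against 276 CPM in WT at day 1. Myl9 averaged 15.7 CPM in KO against 41.6 CPM in WT at day 14, and 38.9 CPM in KO against 2.16 CPM in WT at day 1. Des (480 CPM in KO, 813 CPM in WT), Smtn (52.3 CPM in KO, 87.4 CPM in WT) and Myh11 also had lower means in KO at day 14. Tagln, Cnn1 and Lmod1 had higher means in KO at that day. The 5 macrophage markers in both tables, of 6 listed, summed to 31.8 to 35.7 CPM in KO and 43.5 to 72.4 CPM in WT at day 14, and to 44.2 to 57.3 CPM in KO and 19.6 to 26.0 CPM in WT at day 1, so their sum was high where Dusp1 and Dusp4 were high. Cd68 made up most of this sum, and Lyz2, at most 1.06 CPM on average in any group, went with it. Csf1r did not follow it. It averaged 2.80 CPM in KO against 1.07 CPM in WT at day 14, and 0.480 CPM in KO against 0.424 CPM in WT at day 1. Ptprc and Adgre1 averaged at most 0.477 CPM in any group, Ptprc having 0 counts in WT at day 1 and Adgre1 0 counts in WT at day 14. For the 6 adventitial fibroblast markers the day 14 sum was 672 to 751 CPM in KO, against 491 to 675 CPM in WT. The day 1 sum was 229 to 335 CPM in KO, against 524 to 529 CPM in WT, with Dpt at 0 in KO. Ly6a made up most of this sum, and its day 14 mean was 624 CPM in KO, against 527 CPM in WT. Dpt and Pi16, at most 2.84 CPM on average in any group, also had higher means in KO at day 14. Cd34 and Dpep1 went the other way at that day. The mean of Cd34 was 7.53 CPM in KO, against 39.3 CPM in WT, and that of Dpep1 0.366 CPM, against 5.55 CPM. The 4 mesothelial markers, of which Msln was the most abundant, summed to 78.3 to 82.2 CPM in KO and 269.5 to 412 CPM in WT at day 14, and to 354 to 361 CPM in KO and 399.7 to 408 CPM in WT at day 1. Upk3b had 0 counts in 3 groups. The 4 endothelial markers in both tables, of 6 listed, summed to 6.75 to 8.05 CPM in KO and 6.85 to 8.72 CPM in WT at day 14, and to 4.24 to 5.55 CPM in KO and 13.6 to 16.1 CPM in WT at day 1. The part of the smooth muscle, macrophage, fibroblast, mesothelial and endothelial cells in the results was not tested.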

How the data were processed

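The series holds 12 RNA-seq libraries of primary smooth muscle cells from mouse aorta. RNA was isolated with TRIzol and prepared for sequencing with a NEBNext Ultra kit, per the labels' protocols. Both deposited tables, 1 a day, hold unnormalized counts of reads for every gene name, and build mm9 is named in the submitters' processing notes. The aligner, counter, annotation and strand setting were not given in the sources used here. Repeats of a name with the same counts were dropped (53 at day 14, 43 at day 1), and 2 names with different counts were left out of the shared set.

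Counts were tested by the quasi-likelihood F test of edgeR 4.0.16 (R 4.3.3) after filterByExpr and TMM scaling, with Benjamini-Hochberg adjustment over all genes tested and a threshold of 0.05. KO against WT was fitted within each day on 6 libraries, and every other comparison on all 12 libraries over the shared names, with no covariate. CPM are counts scaled to a common TMM-adjusted total in the fit of 12 libraries, and log2 CPM use a prior count of 2. The SE is the absolute log2 fold change divided by the square root of F. Library totals ran from 13848199 to 30105118 counts. Replicates differed by more than sampling noise, with a chi-square per gene between 2.78 and 46.1, so each library counted as 1 sample. The interval of the Spry1 ratio covers counting error only, and the floor covers that of the KO counts only. The other intervals come from the edgeR fit and reflect the spread between libraries. The scripts were tested on simulated data.

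The members and the lists of other genes were chosen with earlier results of these data known. Named beside the 10 members and Nr4a3 are, from each list and each day, the 2 largest rises and 2 largest falls of KO over WT among called genes whose mean log2 CPM was 1 or more, and the 3 genes most like Dusp6 and Dusp1; Dusp7 was named after its values were seen, as the remaining phosphatase of its list. The alternatives were library size alone or median-ratio size factors in place of TMM, DESeq2 1.42.0, limma-voom (limma 3.58.1), no filter on low counts or one at 1 CPM in 3 libraries, a block for the replicate number, another set of libraries in the fit, and leaving out each library or member. Protein sequences were not used here.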

Additional observations from a re-analysis of the deposited data

Results flagged for a closer look

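The effect of KO differed between the days, by the test of the difference itself in the fit of all 12 libraries (edgeR's quasi-likelihood test, adjusted p below 0.05), for each of the 9 members tested. The differences, given as the log2 fold change of KO over WT at day 14 minus that at day 1, were -3.78 for Dusp1, -2.50 for Dusp4, -1.94 for Dusp16, -1.69 for Dusp5 and -1.28 for Dusp10. They were 2.88 for Spry4, 2.81 for Dusp6, 2.28 for Spred1 and 1.09 for Spry2. For Nr4a3 the difference was -1.23. Of all genes tested, 60.1% passed the same test, so a difference between the days was common. All these differences rest on the genotype labels of day 1 as given, and an exchange of those labels was not tested.

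Of the 44 named genes of the lists, 39 passed that test. They were named for the size of their KO effect at 1 of the days, which favours a difference between days, so this count supports nothing. Fos, Fgf10, Ksr1, Erbb2 and Pea15a did not pass. Of these, Fos and Fgf10 had lower means in KO at both days, and Ksr1 and Pea15a higher ones. Erbb2 had a higher mean in KO at day 1 and nearly equal means at day 14. Among the other phosphatases the difference was 2.38 for Dusp2, -2.96 for Dusp8 and -2.03 for Dusp9. Among the inhibitors it was 4.66 for Errfi1, 3.41 for Spry3, -2.71 for Lrig3 and -1.54 for Il17rd. In the ERK cascade it was 1.51 for Frs2, 1.32 for Shc1, 1.06 for Mapk3, -1.07 for Hras, -0.58 for Sos2 and -0.55 for Gab1. In the JNK and p38 cascades it was 3.12 for Map2k6, 2.70 for Mapk11, 1.93 for Map3k5, -3.41 for Gadd45g, -2.01 for Gadd45a and -1.51 for Gadd45b.

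Among transcripts known to follow ERK the difference was 4.68 for Egr1, 3.58 for Etv5, 2.34 for Etv1, -2.15 for Epha2, -1.81 for Phlda1, -1.75 for Epha4 and -1.55 for Myc. Among immediate early genes it was 7.20 for Egr3, -2.89 for Atf3 and -0.72 for Jun. Among receptors it was 2.80 for Pdgfrb, 2.03 for Ddr2, 1.99 for Pdgfra, -8.40 for Fgfr2 and -2.15 for Erbb3. Among ligands it was 3.55 for Fgf2, 2.58 for Hgf, -7.63 for Igf1, -4.52 for Pdgfd and -3.20 for Tgfa. The value of Igf1 rests on a WT group of day 1 with 5 counts in all.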

How the results depend on the processing

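Over 1153 results of single members under an alternative, 627 that left out 1 library and 482 others kept direction and side of the threshold, 27 passed it newly, 12 lost it and 5 turned direction. All 5 turns came from leaving out 1 library in the comparison of KO at day 1 with WT at day 14, where no turned value had passed: Dusp5 ran from -0.25 to 0.15, Spry2 from -0.12 to 0.34 and Spry4 from -0.061 to 0.49. Members called there numbered 0, against 1 with DESeq2 and 1 with no filter, and 0 to 1 without 1 library. Genes called there numbered 1562, against 205 with only the groups compared and 576 to 5538 without 1 library. The cause of these shifts was not tested.

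Without 1 library, members called ran from 7 to 9 for KO against WT at day 14, 7 to 10 at day 1, 9 to 9 for the change of the KO effect, 8 to 9 between days in KO, 7 to 9 between days in WT and 6 to 7 for KO at day 14 against WT at day 1. Genes called ran in the same order from 5182 to 9209, 8163 to 9991, 9030 to 10501, 7605 to 10017, 7104 to 9067 and 6871 to 9410.

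The difference of KO and WT in the balance of ERK-linked and stress-linked genes was 1.82 at day 14, and 2.16 without Dusp4, 1.51 without Spry4, 1.43 without Dusp1 and 2.21 without Dusp10. At day 1 it was -1.53, and -1.84 with a prior count of 0.5, -1.90 without Dusp4, -1.89 without Dusp5, -1.24 without Dusp6, -1.10 without Spry1 and -1.21 without Dusp1.

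Replicate numbers did not pair the samples: same-numbered deviations of KO and WT correlated between -0.022 and 0.018. With the replicate block, members called numbered 9 and 9 for KO against WT at day 14 and day 1, 9 for the change, 8 and 8 between days in KO and WT, 0 for KO at day 1 against WT at day 14 and 6 for KO at day 14 against WT at day 1, and genes called 6716, 9090, 9398, 8567, 8045, 1436 and 7877. The fit of only the groups compared was not run for the change of the KO effect, which needs all 12 libraries. Counts under 20 in some libraries limit Spry1 and Spry4.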
